A study of Mus musculus with 4 samples.

Results

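The genes described here are 5 heat shock genes, Hspa1a, Hspa1b, Dnajb1, Hsph1 and Hsp90aa1, and 4 genes known as targets of glucocorticoid hormones, Fkbp5, Tsc22d3, Per1 and Klf9. They are 9 of the 32285 genes counted in single macrophages from mouse fat. They were picked by symbol, with results from these same libraries already known, so their levels and ratios are given as descriptions.

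The series compared macrophages from perigonadal white fat of mice with a conditional knockout of BLIMP1 (CKO), a transcriptional repressor encoded by Prdm1, and of wild-type mice (WT), which the design text calls controls. Mice of each genotype ate either food high in fat (high-fat diet, HFD) or normal food (normal diet). Living CD45+ cells that carried CD11b and CD64 but no lineage marker were sorted and sequenced with the 10x Genomics 3′ method, which counts transcripts near their 3′ end by unique molecular identifiers (UMIs). There were 4 libraries, 1 each for CKO HFD, WT HFD, CKO normal diet and WT normal diet, with no replicates, so library and group cannot be told apart and no test between groups was possible. The number of animals behind a library, their age and sex, the duration of feeding, the Cre driver and which exons were deleted do not stand in the sources used.

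Heat shock genes are switched on by the transcription factor HSF1 when unfolded proteins accumulate, and their products are chaperones that bind, refold or hand on damaged proteins. Glucocorticoids act through the receptor NR3C1, which is kept ready for hormone by chaperones of the HSP90 and HSP70 families and, once bound, activates target genes in the nucleus. Macrophages respond to glucocorticoids with an anti-inflammatory programme, and both groups of genes also change quickly when cells are handled or stressed.

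Hspa1a and Hspa1b both encode the stress-inducible cytosolic HSP70 chaperone. On the GRCm38 build Hspa1a lies on the minus strand of chromosome 17, from 34969190 to 34972156, and Hspa1b on the same strand from 34956436 to 34959238, with 9951 bases between them. The 250 bases before their starts are shown because they are nearly the same, while the balance between the 2 genes differed between libraries. These windows come from RefSeq on GRCm38.p6, on the minus strand, at chr17:34972157-34972406 for Hspa1a and chr17:34959239-34959488 for Hspa1b. Capitals mark a pair of facing heat shock units, GAANNTTC or TTCNNGAA, which was present in 12.8% of 32851 promoter windows of the same length, searched on both strands.
Hspa1a: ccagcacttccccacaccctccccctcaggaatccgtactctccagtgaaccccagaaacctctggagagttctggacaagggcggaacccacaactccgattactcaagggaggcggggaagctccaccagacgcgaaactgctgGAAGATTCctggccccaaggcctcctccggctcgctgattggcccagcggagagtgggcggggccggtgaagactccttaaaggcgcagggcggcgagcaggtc
Hspa1b: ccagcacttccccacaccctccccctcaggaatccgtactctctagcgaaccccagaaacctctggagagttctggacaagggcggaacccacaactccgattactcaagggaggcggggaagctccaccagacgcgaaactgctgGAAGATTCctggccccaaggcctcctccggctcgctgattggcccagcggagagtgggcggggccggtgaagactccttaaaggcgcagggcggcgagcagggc
The windows were 98.8% identical. Counted from 1 at the 5′ end of the printed sequence, with the Hspa1a base first, the 3 differences were C44T, T47C and T249G. The pair GAAGATTC stood at positions 147 to 154 in both, with 96 bases between it and the start. The transcripts differ where the 3′ method reads them: the last 500 bases of Hspa1a and of Hspa1b shared 0 of 451 words of 50 bases, although 58.8% of such words in the whole Hspa1a transcript also occur in Hspa1b. Reads from the 3′ ends can therefore be assigned to 1 of the 2 genes, while reads from further inside could be shared, and the authors' treatment of those is not stated in the sources used.

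Hsph1, which encodes the HSP110 nucleotide exchange partner of HSP70, carried the other form of the pair. Its window is on the minus strand at chr5:149636337-149636586, with TTCTCGAA at positions 218 to 225, 25 bases before the start.
Hsph1: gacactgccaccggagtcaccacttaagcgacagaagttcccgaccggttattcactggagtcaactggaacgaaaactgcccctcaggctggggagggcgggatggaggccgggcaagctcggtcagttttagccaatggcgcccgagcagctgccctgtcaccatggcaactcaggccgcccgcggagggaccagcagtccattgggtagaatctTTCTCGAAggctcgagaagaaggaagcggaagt
The windows of Dnajb1 did not hold these letters, and Hsp90aa1 is named only.

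Among the glucocorticoid targets, the exact letters GNACANNNTGTNC, a form of the receptor's response element searched on both strands, were in 0.387% of all windows and in none of the windows of Fkbp5, Tsc22d3, Per1 or Klf9, which says only that the letters are not in these windows. The E-box CACGTG (the same on both strands), the element of the circadian clock factors and in 6.02% of all windows, was in the first window of Fkbp5 and of Per1. These are shown with the E-box in capitals, from the minus strand at chr17:28486150-28486399 for Fkbp5 and from the plus strand at chr11:69098699-69098948 for Per1.
Fkbp5: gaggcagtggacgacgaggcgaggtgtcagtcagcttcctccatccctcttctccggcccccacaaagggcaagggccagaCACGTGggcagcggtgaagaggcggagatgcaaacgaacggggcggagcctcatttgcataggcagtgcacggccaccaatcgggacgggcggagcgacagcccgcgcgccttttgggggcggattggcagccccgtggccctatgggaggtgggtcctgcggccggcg
Per1: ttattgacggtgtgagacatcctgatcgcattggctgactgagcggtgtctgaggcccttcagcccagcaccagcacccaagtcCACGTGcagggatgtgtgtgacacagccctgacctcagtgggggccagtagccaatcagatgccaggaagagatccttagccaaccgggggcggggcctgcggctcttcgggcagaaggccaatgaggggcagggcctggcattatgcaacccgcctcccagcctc
A match in these letters is a description of the sequence and not a measured binding site.

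After filtering, 8731 cells in CKO HFD, 4650 in WT HFD, 4302 in CKO normal diet and 3705 in WT normal diet were kept. Their median depths were 3923, 14492.5, 3939 and 4092 UMIs, so WT HFD had far more UMIs per cell, and shares of cells are given after thinning each cell to 2000 UMIs. Thinning left 7655, 4583, 3482 and 3030 cells, and 1076, 67, 820 and 675 cells were too shallow. Any pair of libraries shared 2 to 9 cell barcodes. All 8 macrophage markers were detected in every library, with summed levels of 3372 to 9265 UMIs per 1000000 UMIs (CPM), while summed fibroblast markers were at 437, 804, 210 and 205 CPM. Prdm1 was at 22.9, 21.9, 28.4 and 22.9 CPM and so was not lower in either CKO library, but 3′ counts outside a deleted part check nothing. Igkc, an immunoglobulin gene, was at 231, 0.699, 131 and 37.2 CPM, and the part of free RNA in the results was not tested. In 3 of the 4 comparisons ratios also followed the length of the gene body: over 5 equal groups of genes from short to long, the median log2 ratio of CKO HFD over WT HFD ran from 0.11 to -0.64, that of WT HFD over WT normal diet from 0.21 to -0.48 and that of CKO HFD over CKO normal diet from 0.34 to -1.16. For CKO over WT on the normal diet it ran from 0.02 to 0.05. TMM scaling, an alternative to CPM, sets each library's total by the bulk of its genes. The members span 2.80 kb (Hspa1b) to 118 kb (Fkbp5). On GRCm38, Dnajb1 lies on the plus strand of chromosome 8 (83608193 to 83612653), Hsph1 on the minus strand of chromosome 5 (149614287 to 149636376) and Hsp90aa1 on the minus strand of chromosome 12 (110690605 to 110702728). Fkbp5 lies on the minus strand of chromosome 17 (28399094 to 28517527), Tsc22d3 on the minus strand of chromosome X (140539528 to 140600659), Per1 on the plus strand of chromosome 11 (69095217 to 69109960) and Klf9 on the plus strand of chromosome 19 (23141226 to 23168134).

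Over all kept cells and in CPM, both Hspa1 genes were higher in each CKO library than in the WT library on the same diet. They were also higher on the high-fat diet than on the normal diet of the same genotype. Hspa1a had 217 CPM (95% counting interval 213 to 222) in CKO HFD and 118 CPM (116 to 121) in WT HFD, and 102 CPM (98.4 to 106) in CKO normal diet and 48.0 CPM (45.1 to 51.0) in WT normal diet. Hspa1b had 96.2 CPM (93.3 to 99.2) in CKO HFD and 66.6 CPM (64.8 to 68.5) in WT HFD, and 81.7 CPM (78.1 to 85.3) in CKO normal diet and 33.7 CPM (31.3 to 36.2) in WT normal diet. In both genes WT normal diet was the lowest of the 4 libraries and CKO HFD the highest, and within each gene no 2 of the 4 intervals overlapped. In levels pooled over a library, fewer cells with a transcript and less RNA per cell cannot be told apart. These intervals, like all others given, cover counting error only and say nothing of the spread between animals. Those of levels and ratios take each UMI as independent. They therefore also leave out the uneven spread over cells described below, and are too narrow where UMIs cluster in cells.

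The ratio of CKO over WT for Hspa1a was 1.84 on the high-fat diet (1.78 to 1.89) and 2.13 on the normal diet (1.98 to 2.30). For Hspa1b it was 1.44 (1.39 to 1.51) and 2.42 (2.23 to 2.64). In CKO over WT on the normal diet Hspa1b had rank 2 and Hspa1a rank 4 of 8111 genes by the ratio of CPM + 1. HFD over normal diet was 2.12 in CKO and 2.47 in WT for Hspa1a, and 1.18 in CKO and 1.98 in WT for Hspa1b. The value of 1.18 was 0.932 when set against genes of similar length and 1.65 with TMM scaling, so its direction depends on the scaling.

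**Figure D1:**
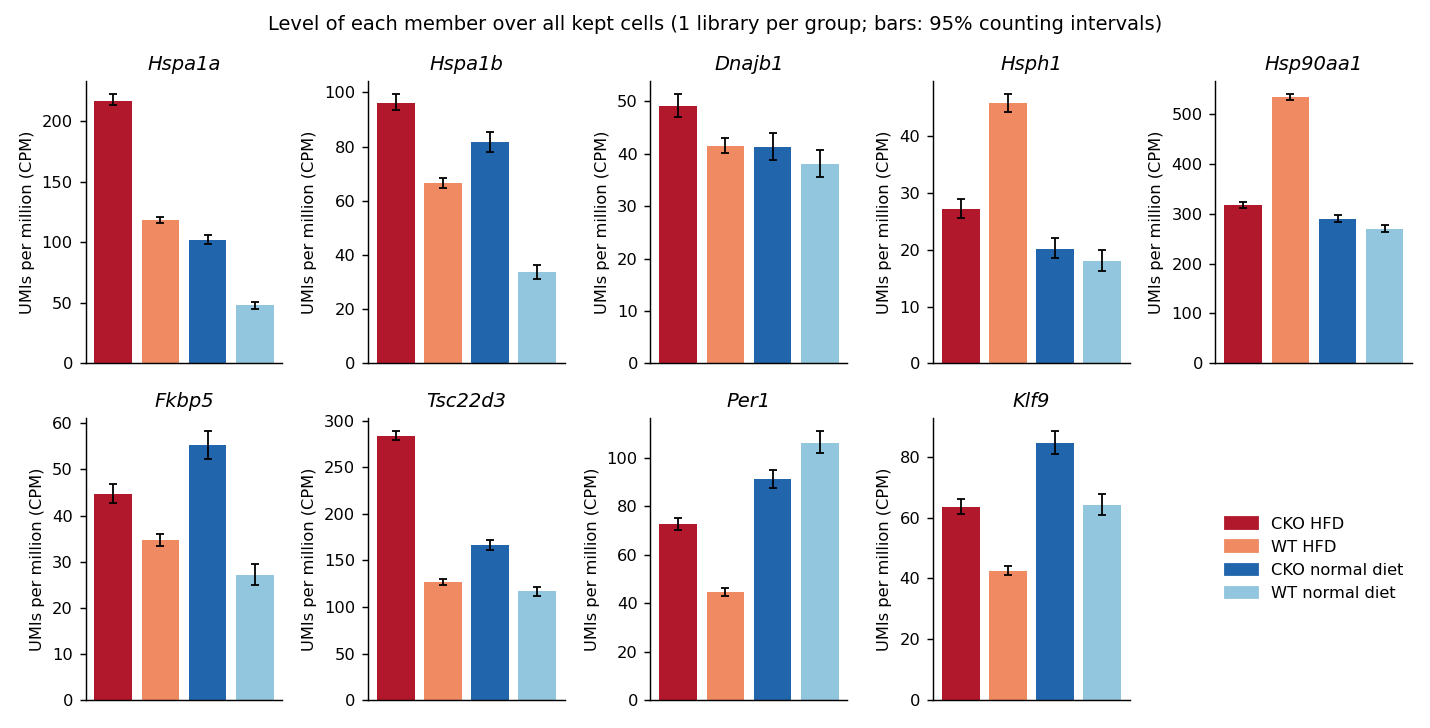
Level of each of the 9 genes over all kept cells, in CPM (vertical axes, from 0), with bars in the order CKO HFD, WT HFD, CKO normal diet and WT normal diet and lines for 95% counting intervals. Hspa1a and Tsc22d3 are highest in CKO HFD (217 and 284 CPM), Hsph1 and Hsp90aa1 in WT HFD (45.9 and 534 CPM), Fkbp5 and Klf9 in CKO normal diet (55.2 and 84.6 CPM) and Per1 in WT normal diet (106 CPM).

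Hsp90aa1 and Hsph1 took a different order. Hsp90aa1, which encodes the stress-inducible form of cytosolic HSP90, had 317 CPM in CKO HFD, 534 CPM in WT HFD, 290 CPM in CKO normal diet and 270 CPM in WT normal diet. Hsph1 had 27.2, 45.9, 20.2 and 18.0 CPM in the same order of libraries. For both genes WT HFD stood above the other 3 libraries, and the 2 normal-diet libraries were close. CKO HFD over WT HFD was 0.594 for Hsp90aa1 (0.583 to 0.606) and 0.594 for Hsph1 (0.555 to 0.635), and WT HFD over WT normal diet was 1.98 (1.92 to 2.03) and 2.54 (2.29 to 2.83). With TMM scaling the ratios of CKO HFD over WT HFD were 0.688 and 0.687, which no longer differ by 1.5 times. CKO over WT on the normal diet was 1.08 for Hsp90aa1 (1.04 to 1.11) and 1.12 for Hsph1 (0.979 to 1.28).

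Dnajb1, the HSP40 co-chaperone that delivers clients to HSP70, varied least among the 5 in CPM. It had 49.1 CPM in CKO HFD, 41.5 CPM in WT HFD, 41.3 CPM in CKO normal diet and 38.1 CPM in WT normal diet. Its 4 ratios lay between 1.08 and 1.19, and they depended on the scaling in both directions. With TMM scaling CKO HFD over CKO normal diet was 1.67, past 1.5 times, and CKO HFD over WT HFD was 1.37. Set against genes of similar length the diet ratio was 0.941 in CKO and 0.941 in WT, and in thinned cells CKO over WT on the normal diet was 0.966.

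The heat shock genes did not share 1 order over the libraries. Summed over Hspa1a and Hspa1b, the level was 314 CPM in CKO HFD, 185 CPM in WT HFD, 184 CPM in CKO normal diet and 81.6 CPM in WT normal diet. The sum of Hsp90aa1, Hsph1 and Dnajb1 was 393, 621, 352 and 326 CPM. CKO HFD over WT HFD was 1.70 for the first sum and 0.634 for the second, and the sum over all 5 genes, at 0.877 (0.865 to 0.890), lay between them, and with TMM scaling that total ratio was 1.02. On the normal diet the same 2 sums had CKO over WT ratios of 2.25 and 1.08.

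Of the glucocorticoid targets, Tsc22d3 separated CKO from WT most on the high-fat diet. This gene, which encodes GILZ, an inhibitor of inflammatory transcription factors, had 284 CPM in CKO HFD, 127 CPM in WT HFD, 167 CPM in CKO normal diet and 117 CPM in WT normal diet. Both CKO libraries lay above both WT libraries. CKO over WT was 2.24 on the high-fat diet (2.18 to 2.30) and 1.42 on the normal diet. The diet ratio was 1.70 in CKO and 1.09 in WT, and the value in WT turned to 0.979 in thinned cells.

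Fkbp5 encodes FKBP51, a co-chaperone of HSP90 that lowers the receptor's affinity for hormone and is itself induced by it. It had 44.7 CPM in CKO HFD, 34.7 CPM in WT HFD, 55.2 CPM in CKO normal diet and 27.2 CPM in WT normal diet. Again both CKO libraries lay above both WT libraries, but here the normal-diet CKO library was the highest. CKO over WT was 1.29 on the high-fat diet (1.21 to 1.37) and 2.03 on the normal diet (1.84 to 2.24). On the normal diet Fkbp5 had rank 6 of 8111 genes by the ratio of CPM + 1. Against genes of similar length the 2 ratios of CKO over WT were 2.00 and 1.96. Its diet ratio was 0.809 in CKO and 1.28 in WT, and the value in CKO turned to 1.13 with TMM scaling and 1.81 against genes of similar length, its gene body being the longest of the 9.

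Per1 and Klf9 were both lower on the high-fat diet in CPM, although in CKO this turned with TMM scaling. Per1, a period gene of the circadian clock that glucocorticoids also induce, had 72.6 CPM in CKO HFD, 44.6 CPM in WT HFD, 91.2 CPM in CKO normal diet and 106 CPM in WT normal diet. Klf9, a Krüppel-like repressor induced by glucocorticoids, had 63.6, 42.4, 84.6 and 64.2 CPM. WT HFD was the lowest library for both genes. WT HFD over WT normal diet was 0.419 for Per1 (0.397 to 0.442) and 0.662 for Klf9 (0.621 to 0.705). For Klf9 this difference was not seen in every set of cells, as given below. In CKO the same diet ratio was 0.796 for Per1 and 0.751 for Klf9, both of which turned above 1 with TMM scaling, at 1.12 and 1.05. CKO over WT was 1.63 for Per1 and just under 1.5 for Klf9 (1.42 to 1.58) on the high-fat diet, and 0.857 and 1.32 on the normal diet. The time of day at tissue collection is not known, and its part in the Per1 levels was not tested.

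Summed over the 4 targets, the level was 465 CPM in CKO HFD, 249 CPM in WT HFD, 398 CPM in CKO normal diet and 315 CPM in WT normal diet. CKO over WT was 1.87 on the high-fat diet (1.83 to 1.91) and 1.26 on the normal diet (1.23 to 1.30). HFD over normal diet was 1.17 in CKO and 0.790 in WT. Tsc22d3 made up 284 of the 465 CPM in CKO HFD. The diet ratio in CKO was 1.70 for Tsc22d3 but 0.809 for Fkbp5, 0.796 for Per1 and 0.751 for Klf9, so the sum follows Tsc22d3 there. Nr3c1, the receptor gene, was at 93.1, 101, 164 and 149 CPM and so did not follow this order, and Hsf1 was at 12.5, 13.6, 14.1 and 14.6 CPM.

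For background, every gene that reached 10 CPM in either library of a comparison was counted as past a limit of size when its ratio was over 1.5 or under its inverse. By this rule, the shares of genes past it differed widely between comparisons. For CKO HFD over WT HFD, 5.38% of 7864 genes were higher and 20.7% lower past this limit. Among the 5 heat shock genes 1 was higher and 2 were lower, and among the 4 glucocorticoid targets 2 were higher. For CKO over WT on the normal diet only 0.493% of 8111 genes were higher and 0.592% lower, and here 2 of 5 heat shock genes and 1 of 4 targets were higher. For WT HFD over WT normal diet the background was 13.2% higher and 24.6% lower of 8342 genes, with 4 of 5 heat shock genes higher and 2 of 4 targets lower. For CKO HFD over CKO normal diet it was 11.8% higher and 42.6% lower of 8235 genes, with 1 of 5 and 1 of 4 higher. These splits depend on the scaling. With TMM scaling the background was 9.97% higher and 10.6% lower for CKO HFD over WT HFD, with 2 of 5 heat shock genes and 3 of 4 targets higher and 0 lower. For CKO over WT on the normal diet it was 0.395% higher and 0.653% lower, with the same 2 and 1 members higher as in CPM. For WT HFD over WT normal diet it was 22.5% higher and 13.5% lower, with 4 of 5 heat shock genes higher, 1 of 4 targets higher (Fkbp5) and 1 lower (Per1). For CKO HFD over CKO normal diet it was 25.9% higher and 21.0% lower, with all 5 heat shock genes and 1 of 4 targets higher. The median log2 ratio of all genes in these 4 comparisons, taken on CPM + 1, was -0.21, 0.03, -0.17 and -0.42. The median of the heat shock genes, taken on CPM, was 0.24, 0.16, 0.98 and 0.25, and that of the targets 0.64, 0.46, -0.24 and -0.32. Since the members were known from these libraries, nothing is read from the counts themselves, and comparisons that share a library are not independent.

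**Figure D2:**
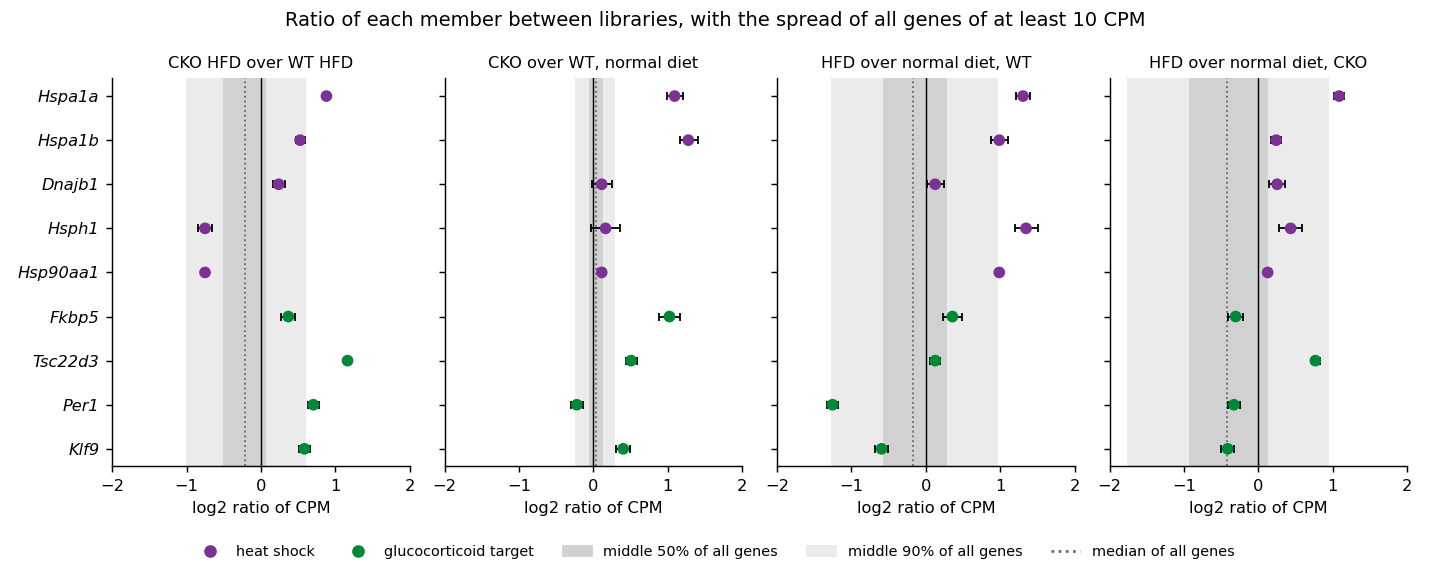
Log2 ratio of CPM of each of the 9 genes (horizontal axes) in the 4 comparisons, with 95% counting intervals, over grey bands that hold the middle 50% and 90% of all genes of at least 10 CPM and a dotted line at their median. On the normal diet Hspa1a, Hspa1b and Fkbp5 lie far to the right of a narrow band (log2 ratios 1.09, 1.28 and 1.02), and in CKO HFD over WT HFD the heat shock genes lie on both sides of 0.

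The Hspa1 genes were the most unevenly spread over cells. At 2000 UMIs per cell, Hspa1a was detected in 25.4% of cells in CKO HFD, 13.6% in WT HFD, 15.9% in CKO normal diet and 8.12% in WT normal diet. Without thinning the shares were 35.2%, 35.0%, 27.6% and 16.6%, so the gap between CKO HFD and WT HFD was seen at equal depth and not in the raw share. At least 3 UMIs of Hspa1a were found in 6.09%, 2.55%, 1.69% and 0.495% of thinned cells. The Fano factor, the variance over the mean and 1 for pure counting, was 2.70, 2.25, 1.72 and 1.64 for Hspa1a and 2.32, 2.35, 2.17 and 1.82 for Hspa1b. For Per1 it was 1.04, 1.03, 1.05 and 1.02, and for Hsph1 1.09, 1.10, 1.01 and 1.05. This factor nears 1 at low levels whatever the spread, so the variance beyond counting was also divided by the squared mean. That quantity was 3.36, 5.29, 3.12 and 6.11 for Hspa1a and 6.12, 10.4, 6.18 and 11.4 for Hspa1b, above the other 7 members in each library. Next below Hspa1a came Dnajb1 in CKO HFD (2.59) and WT normal diet (2.16), and Fkbp5 in WT HFD (3.60) and CKO normal diet (3.03), where the gap was slight. The quantity was 1.73, 1.14, 0.245 and 1.59 for Hsph1, between 0.0771 and 0.345 for Per1, and 0.369, 0.556, 0.337 and 0.398 for Hsp90aa1.

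Cells with 1 Hspa1 gene often had the other. Hspa1b was detected in 29.6% of Hspa1a-positive cells and 6.79% of Hspa1a-negative cells in CKO HFD, and in 27.2% and 4.50% in WT HFD. With the normal diet it was in 28.1% and 8.84% in CKO, and in 15.0% and 4.45% in WT. Hsp90aa1 was detected in 46.3% and 41.6% of such cells in CKO HFD, in 66.4% and 53.5% in WT HFD, in 44.7% and 40.5% in CKO normal diet and in 36.6% and 37.2% in WT normal diet. Tsc22d3 was in 49.8% of Hspa1a-positive and 36.2% of Hspa1a-negative cells in CKO HFD, in 28.5% and 18.6% in WT HFD, in 29.5% and 28.0% in CKO normal diet, and in 27.6% and 20.6% in WT normal diet. Among the glucocorticoid targets, Tsc22d3 was in 50.1% of Fkbp5-positive and 38.7% of Fkbp5-negative cells in CKO HFD, in 24.5% and 19.7% in WT HFD, in 40.9% and 26.8% in CKO normal diet, and in 22.8% and 21.1% in WT normal diet.

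The balance between the 2 Hspa1 genes differed between libraries. There were 2.26 Hspa1a UMIs per Hspa1b UMI in CKO HFD (2.18 to 2.34), 1.78 in WT HFD (1.72 to 1.84), 1.25 in CKO normal diet (1.18 to 1.33) and 1.42 in WT normal diet (1.29 to 1.57). Over all kept cells the balance was thus tilted further to Hspa1a on the high-fat diet in both genotypes, but in WT not in every set of cells. In cells with no UMI of a gate gene, the largest set, it was 2.34 in CKO HFD (2.17 to 2.52) and 1.18 in CKO normal diet (1.04 to 1.34), while in WT it was 1.56 in WT HFD (1.37 to 1.77) and 1.55 in WT normal diet (1.27 to 1.90). Its absolute value depends on how each 3′ end is captured, so only its differences between libraries and cells are described. Of thinned cells, 17.9% held Hspa1a alone, 5.07% Hspa1b alone and 7.51% both in CKO HFD, against 9.93%, 3.88% and 3.71% in WT HFD. With the normal diet the same shares were 11.4%, 7.44% and 4.45% in CKO and 6.90%, 4.09% and 1.22% in WT.

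**Figure D3:**
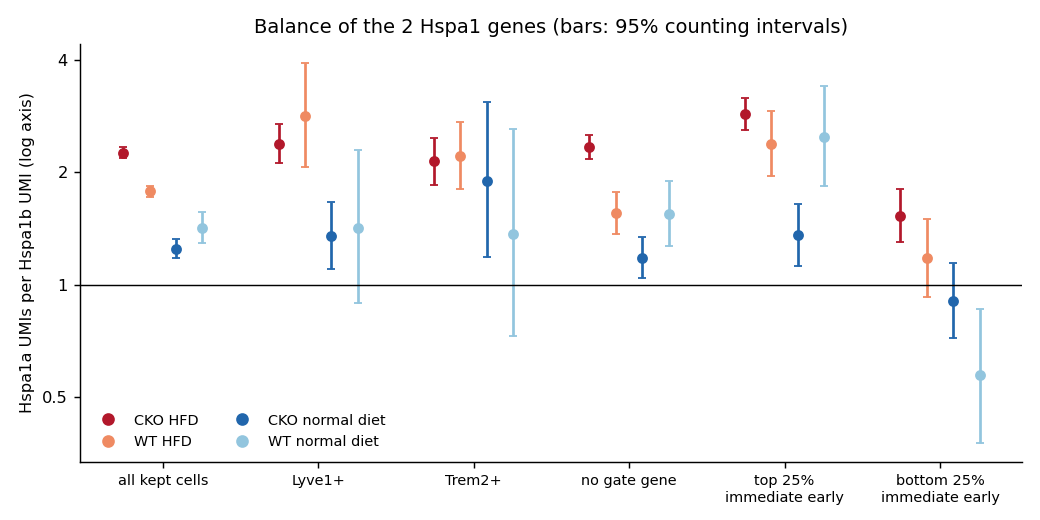
Hspa1a UMIs per Hspa1b UMI (vertical log axis) in all kept cells, in cells with a UMI of Lyve1 or Trem2 or of no gate gene, and in the 25% of cells with most and with least immediate early RNA, by library, with 95% counting intervals. Over all kept cells the HFD libraries lie at 2.26 and 1.78 and the normal-diet libraries at 1.25 and 1.42, and in the bottom 25% WT normal diet lies below 1, at 0.574.

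Cells were next grouped by a UMI of Treml4, of Lyve1 or of Trem2 after thinning. Treml4 marks non-classical monocytes and related phagocytes, Lyve1, which encodes a hyaluronan receptor, marks resident macrophages, and Trem2, a lipid receptor, marks lipid-associated macrophages. Lyve1+ cells made up 14.4% of thinned cells in CKO HFD, 6.20% in WT HFD, 21.6% in CKO normal diet and 14.5% in WT normal diet. Trem2+ cells made up 23.9%, 36.4%, 6.86% and 6.70%. Treml4+ cells made up 4.74% in CKO normal diet and 6.24% in WT normal diet, and with 39 and 32 cells in CKO HFD and WT HFD they were too few there for levels. Summed markers were compared with these gates. The 9 other resident markers had 11544 CPM in Lyve1+ and 4325 CPM in Trem2+ cells of CKO HFD. In Trem2+ cells the 9 other lipid-associated markers had 6972 CPM in CKO HFD and 9586 CPM in WT HFD, above the resident markers there (4325 and 2962 CPM). On the normal diet it was the other way round: Trem2+ cells had 2669 CPM of lipid-associated and 8496 CPM of resident markers in CKO, and 4611 and 7426 CPM in WT. Trem2+ therefore means only cells with a Trem2 UMI and names no cell type. The 9 other non-classical monocyte markers had 6241 CPM in Treml4+ and 1182 CPM in Lyve1+ cells of WT normal diet. As background for the gates, Lyve1 was in 1 and Trem2 in 3 of 62 fibroblast-like cells of CKO HFD, whose median depth was 3698.5 UMIs, against 3723.0 UMIs in Lyve1+ cells. Between 0 and 168 cells of a library were in any 2 gates at once.

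Hspa1a was far lower in Treml4+ cells than in either macrophage gate. Treml4+ cells of the normal diet had 15.2 CPM in CKO (5 UMIs in 165 cells) and 2.65 CPM in WT (1 UMI in 189 cells). Lyve1+ cells had 145 CPM in CKO and 53.4 CPM in WT, and Trem2+ cells had 115 CPM in CKO and 64.0 CPM in WT. Treml4+ over Lyve1+ was 0.104 in CKO (0.0336 to 0.247) and 0.0495 in WT (0.00123 to 0.290). Hspa1a was detected in 3.03% and 0.529% of Treml4+ cells, against 19.7% and 9.77% of Lyve1+ cells, with median depths before thinning of 2832 and 2811 UMIs against 4062 and 4190.5 UMIs. Hspa1b was less separated, at 42.4 CPM in Treml4+ and 107 CPM in Lyve1+ cells of CKO, and 18.5 CPM and 37.5 CPM in WT.

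Hsp90aa1 hardly differed between these cells. Treml4+ cells had 279 CPM in CKO normal diet and 228 CPM in WT normal diet, against 283 and 248 CPM in Lyve1+ cells and 253 and 236 CPM in Trem2+ cells. Treml4+ over Lyve1+ was 0.985 in CKO (0.778 to 1.24) and 0.918 in WT (0.707 to 1.18), intervals that leave room for differences of either sign. Dnajb1 was at 15.2 CPM in Treml4+ cells of CKO normal diet but 45.0 CPM in those of WT normal diet, a CKO over WT ratio of 0.337 (0.0972 to 0.951). Members that reached 50 CPM in either gate were counted: 0 were higher and 6 of 8 lower past 1.5 times in Treml4+ over Lyve1+ cells of CKO, where 30.3% of genes were higher and 26.9% lower. In WT 0 were higher and 4 of 6 lower, where 30.8% were higher and 23.8% lower. For Treml4+ over Trem2+ cells 0 were higher and 2 of 7 lower in CKO, where 31.5% were higher and 25.5% lower, and 0 were higher and 2 of 5 lower in WT, where 32.8% were higher and 23.7% lower.

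On the high-fat diet the Lyve1+ cells stood above the Trem2+ cells for most members. Hspa1a had 439 CPM in Lyve1+ and 166 CPM in Trem2+ cells of CKO HFD, and 275 CPM and 88.8 CPM in those of WT HFD. The ratio of Lyve1+ over Trem2+ was 2.65 in CKO (2.39 to 2.94) and 3.09 in WT (2.53 to 3.77), while on the normal diet, where Trem2+ cells held more resident than lipid-associated marker RNA, it was 1.26 (0.935 to 1.73) in CKO and 0.834 (0.506 to 1.40) in WT. The same ratio for Fkbp5 was 3.13 in CKO HFD (2.46 to 4.01), 3.06 in WT HFD (2.11 to 4.39), 1.66 in CKO normal diet (1.09 to 2.64) and 0.958 in WT normal diet (0.478 to 2.02). Tsc22d3 was higher in Lyve1+ cells of every library, by 2.19, 2.50, 1.67 and 1.53. Among members of that level, 7 of 8 in CKO HFD and 6 of 9 in WT HFD were higher in Lyve1+ than in Trem2+ cells past 1.5 times, where 21.2% and 22.9% of genes were, and 0 were lower, where 7.96% and 12.0% of genes were. With the normal diet 3 of 8 in CKO and 4 of 6 in WT were higher, where 7.60% and 12.0% of genes were, and 0 were lower, where 6.20% and 8.67% were.

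**Figure D4:**
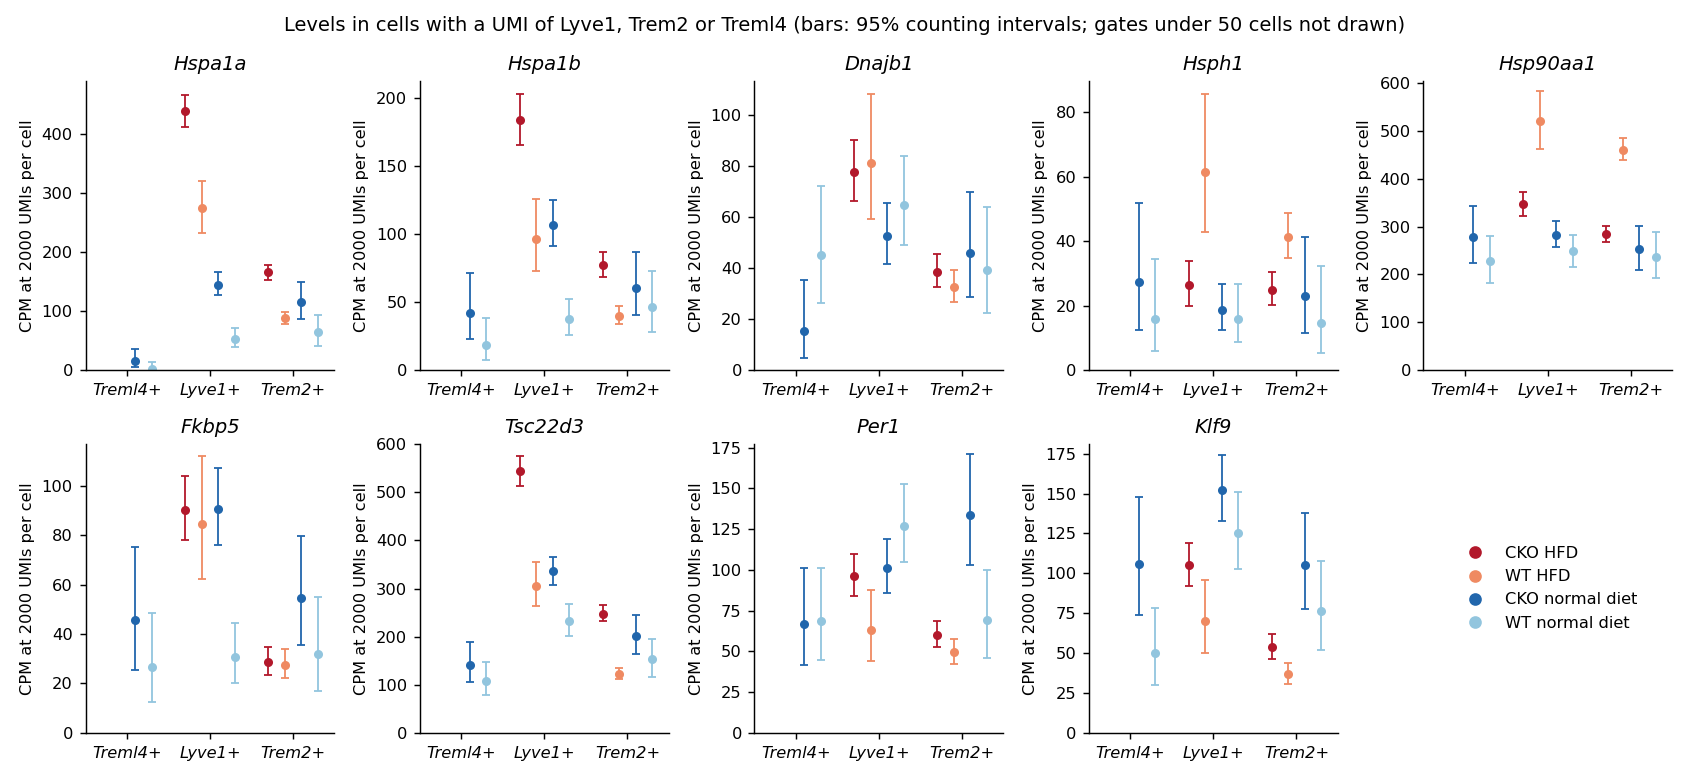
Level of each of the 9 genes at 2000 UMIs per cell, in CPM (vertical axes, from 0), in Treml4+, Lyve1+ and Trem2+ cells of each library, with 95% counting intervals; Treml4+ cells of the HFD libraries were too few to draw. Hspa1a runs from 2.65 CPM in Treml4+ cells of WT normal diet to 439 CPM in Lyve1+ cells of CKO HFD, while Hsp90aa1 differs more between libraries than between gates, with WT HFD highest in both gates (521 and 461 CPM).

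Because the gates took different shares of each library, the comparisons between libraries were repeated within them. Hspa1a in Lyve1+ cells was 439 CPM in CKO HFD, 275 CPM in WT HFD, 145 CPM in CKO normal diet and 53.4 CPM in WT normal diet. The diet ratio there was 3.02 in CKO (2.61 to 3.52) and 5.14 in WT (3.69 to 7.29), and in Trem2+ cells, whose summed markers differed between diets, 1.44 in CKO (1.09 to 1.93) and 1.39 in WT (0.927 to 2.16). CKO over WT for Hspa1a on the high-fat diet was 1.60 in Lyve1+ and 1.87 in Trem2+ cells, and on the normal diet 2.72 and 1.80. For Hspa1b the diet ratio was 1.72 in CKO (1.43 to 2.07) and 2.58 in WT (1.65 to 4.10) in Lyve1+ cells. In Trem2+ cells it was 1.28 (0.870 to 1.94) and 0.859 (0.529 to 1.47), intervals that include 1. With no gate gene it was 1.10 (0.984 to 1.23) and 2.16 (1.79 to 2.60). CKO over WT for Hspa1b on the high-fat diet was 1.90 in Lyve1+ and 1.93 in Trem2+ cells, but 1.36 (1.21 to 1.53) with no gate gene. On the normal diet that ratio was 2.86 in Lyve1+ cells, 1.30 (0.703 to 2.45) in Trem2+ cells and 2.67 (2.23 to 3.22) with no gate gene. For Hsp90aa1, CKO HFD over WT HFD was 0.667 in Lyve1+ and 0.617 in Trem2+ cells, and for Hsph1 it was 0.426 (0.276 to 0.668) and 0.602 (0.457 to 0.790).

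Tsc22d3 was higher in CKO HFD than in WT HFD in both gates, by 1.78 (1.51 to 2.10) in Lyve1+ and 2.03 (1.80 to 2.29) in Trem2+ cells. For Fkbp5 this ratio was 1.07 (0.775 to 1.49) in Lyve1+ and 1.04 (0.780 to 1.39) in Trem2+ cells, intervals that include both 1 and the ratio over all cells, 1.29. In cells with no gate gene it was 1.20 (1.01 to 1.43). Fed the normal diet, its CKO over WT ratio in Lyve1+ cells was 2.95 (1.94 to 4.64), from 90.5 CPM in CKO and 30.7 CPM in WT, while in Trem2+ cells it was 1.70 (0.842 to 3.60). Fkbp5 in Lyve1+ cells was also at 90.1 CPM in CKO HFD and 84.5 CPM in WT HFD, so WT normal diet was lowest in these cells and the other 3 libraries had overlapping intervals. For Per1 on the normal diet, CKO over WT was 0.795 (0.619 to 1.02) in Lyve1+ cells, an interval that includes 1, and 1.94 (1.23 to 3.14) in Trem2+ cells.

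Immediate early genes, such as Fos, Jun and Egr1, are transcribed within minutes of a stimulus, tissue dissociation included. Cells were ranked in each library by their summed UMIs of 12 such genes, none of them a member, and the 25% with most were set against the 25% with least, at 46.0 against 10.0 UMIs per cell in the median of CKO HFD, 40.0 against 8.0 in WT HFD, 48.0 against 12.0 in CKO normal diet and 52.0 against 10.0 in WT normal diet. Hspa1a was 4.20 times higher in the top cells of CKO HFD (423 against 101 CPM), 2.27 times in WT HFD, 1.80 times in CKO normal diet and 3.90 times in WT normal diet. Hspa1b was past 1.5 times in CKO HFD alone, at 2.24 (1.93 to 2.61), and was at 1.11, 1.20 and 0.897 in the other 3 libraries. The balance of Hspa1a to Hspa1b was 2.87 in the top and 1.53 in the bottom cells of CKO HFD, 2.39 and 1.18 in those of WT HFD, 1.36 and 0.906 in those of CKO normal diet, and 2.49 and 0.574 in those of WT normal diet.

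Dnajb1, Tsc22d3, Per1 and Klf9 were higher in the top cells of every library. Their ratios ran from 1.68 to 2.59 for Dnajb1, 1.44 to 2.73 for Tsc22d3, 1.56 to 2.33 for Per1 and 1.81 to 2.64 for Klf9. Fkbp5 was at 2.10 in CKO HFD (1.68 to 2.63), 1.27 in WT HFD (0.919 to 1.76), 1.53 in CKO normal diet (1.17 to 2.02) and 1.05 in WT normal diet (0.671 to 1.64). Hsp90aa1 was not higher in 3 of them, at 0.871 in CKO HFD, 0.734 in WT HFD and 0.956 in CKO normal diet, and was at 1.08 in WT normal diet. Hsph1 was lower in the top cells, at 0.593 (0.432 to 0.809) in CKO HFD, 0.773 (0.582 to 1.02) in WT HFD, 0.833 (0.517 to 1.34) in CKO normal diet and 0.519 (0.251 to 1.02) in WT normal diet, so the interval excludes 1 in CKO HFD alone. Of members that reached 50 CPM in either set of cells, 7 of 8 in CKO HFD, 4 of 7 in WT HFD, 5 of 8 in CKO normal diet and 5 of 6 in WT normal diet were higher past 1.5 times, where 16.8%, 11.9%, 12.9% and 17.9% of genes were. None of them was lower, where 15.8%, 8.69%, 15.9% and 22.8% of genes were. The part of cell handling in these levels was not tested.

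**Figure D5:**
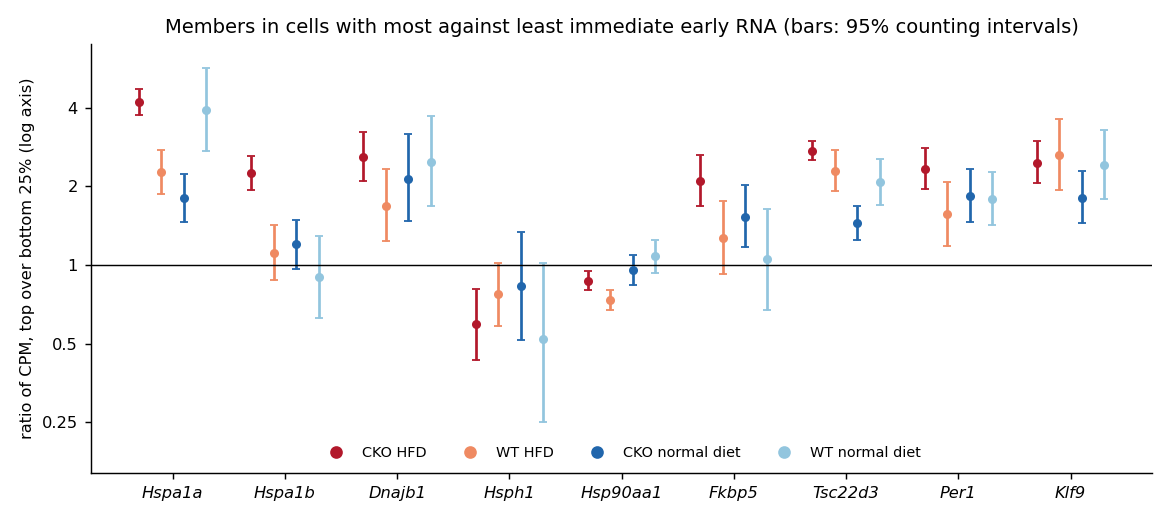
Ratio of CPM in the 25% of cells with most over the 25% with least immediate early RNA (vertical log axis) for each of the 9 genes, by library, with 95% counting intervals. Hspa1a, Dnajb1, Tsc22d3, Per1 and Klf9 lie above 1 in all 4 libraries, the interval of Hspa1b lies above 1 in CKO HFD alone (2.24), and Hsph1 and Hsp90aa1 lie at or below 1 in most.

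The immediate early genes themselves were compared between genotypes. Of 12 genes, 0 were past 1.5 times in CPM in CKO over WT on either diet. Of all genes 5.38% were higher and 20.7% lower on the high-fat diet, and 0.493% and 0.592% on the normal diet. On the high-fat diet Nr4a1 was at 1.44, Ier2 at 1.43 and Egr1 at 1.41. With TMM scaling these 3 were higher past the limit, at 1.66, 1.66 and 1.63, where 9.97% of all genes were. On the normal diet 0 of the 12 were past it with TMM scaling, where 0.395% of all genes were higher and 0.653% lower. The median log2 ratio of the 12 was 0.25 on the high-fat diet, where that of all genes was -0.21, and -0.06 on the normal diet, where that of all genes was 0.03. Fos was at 2837 CPM in CKO HFD, 2704 CPM in WT HFD, 2327 CPM in CKO normal diet and 2202 CPM in WT normal diet. Nr4a1, an orphan nuclear receptor, was at 387, 269, 836 and 976 CPM, lower on the high-fat diet in both genotypes. Nr4a1 is also on the list of non-classical monocyte markers used here. Treml4+ cells made up 0.509% in CKO HFD and 0.698% in WT HFD, but 4.74% in CKO normal diet and 6.24% in WT normal diet. The part of that difference in the Nr4a1 levels was not tested. In CKO over WT on the normal diet the ratios of the 12 genes ran from 0.849 to 1.32, with Fos at 1.06 and Nr4a1 at 0.857. The part of cell handling in the differences between genotypes was not tested.

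Partners of the heat shock members were counted by the same limit. Of 32 further chaperone and HSF genes, 26 reached 10 CPM in CKO HFD over WT HFD, of which 0 were higher and 4 lower past 1.5 times (Hspa8, Bag3, Chordc1 and Serpinh1), where 5.38% of all genes were higher and 20.7% lower. Their median log2 ratio was -0.37, against -0.21 over all genes. With TMM scaling 0 were lower and 1, Hspe1, the mitochondrial co-chaperonin gene, was higher, where 10.6% and 9.97% of all genes were. In CPM the ratio of Hspe1 was 1.41. Serpinh1 encodes a collagen chaperone, and fibroblast markers were also lower in CKO HFD. The part of fibroblast RNA in the Serpinh1 ratio was not tested. Hspa8, the constitutive HSP70, was at 1263 CPM in CKO HFD, 1907 CPM in WT HFD, 1005 CPM in CKO normal diet and 1015 CPM in WT normal diet, highest in WT HFD as Hsp90aa1 was. In CKO over WT on the normal diet 0 of 26 were past the limit, where 0.493% of all genes were higher and 0.592% lower. The median of the 26 was 0.02, against 0.03 over all genes. Hsp90ab1, the constitutive HSP90, had 948 CPM in CKO normal diet and 935 CPM in WT normal diet, and Bag3, an HSP70 co-chaperone and a target of HSF1, had 44.6 and 37.3 CPM. For WT HFD over WT normal diet 6 of 27 were higher and 2 lower, where 13.2% of all genes were higher and 24.6% lower (12 and 1 with TMM scaling, where 22.5% and 13.5% were). Among the higher ones were Ahsa1, the activator of HSP90 activity, at 2.00 and Cacybp at 1.95.

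Chaperones of the endoplasmic reticulum, which answer to the unfolded protein response and not to HSF1, were counted in the same way. Of 16 genes, 0 were higher and 4 lower in CKO HFD over WT HFD, near the 20.7% of all genes that were lower. With TMM scaling 2 were higher and 1 lower, where 9.97% and 10.6% of all genes were. Among the 4 lower in CPM was Hspa5, encoding BiP, at 638 CPM in CKO HFD and 991 CPM in WT HFD. In WT HFD over WT normal diet 6 were higher and 2 lower, where 13.2% and 24.6% of all genes were (8 and 0 with TMM scaling, where 22.5% and 13.5% were), with Calr at 2.26, Manf at 2.40 and Creld2 at 2.99, while Atf4 and Xbp1, transcription factors of that response, were at 0.590 and 0.646. None of the 16 was past the limit in CKO over WT on the normal diet, where 0.493% of all genes were higher and 0.592% lower.

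Other genes of the glucocorticoid pathway went both ways. Of 27 genes, 19 reached 10 CPM in CKO HFD over WT HFD, with 6 higher and 3 lower, where 5.38% and 20.7% of all genes were, and a median log2 ratio of 0.20, against -0.21 over all genes. With TMM scaling 9 were higher and 3 lower, where 9.97% and 10.6% of all genes were. The higher ones included the metallothionein Mt1 at 2.99 and Mt2 at 2.39, the scavenger receptor gene Cd163 at 2.44, and the kinase gene Sgk1 at 1.66. The lower ones included Zbtb16, a strongly inducible target in other cells, at 8.77 CPM in CKO HFD and 25.2 CPM in WT HFD, a ratio of 0.348, and Bcl6 at 0.575. In CKO over WT on the normal diet, 0 of 21 were higher and 1, Thbs1, was lower at 0.549, where 0.493% and 0.592% of all genes were. The median of the 21 was 0.01. Cd163 was at 284 CPM in CKO normal diet and 209 CPM in WT normal diet, and Dusp1, an inducible phosphatase, at 3034 and 2665 CPM. In WT HFD over WT normal diet 2 were higher and 11 lower, where 13.2% and 24.6% of all genes were (3 and 7 with TMM scaling, where 22.5% and 13.5% were). The lower ones included Dusp1 at 0.581, Mt2 at 0.416 and Zfp36 at 0.624. Annexin A1 (Anxa1), another known target, went the other way, at 3.55.

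Most clock genes that reached 10 CPM were lower on the high-fat diet in CPM. Of 16 genes listed, 7 reached that level in WT and 6 in CKO, and the uncounted rest went both ways. In WT, 6 of 7 were lower past 1.5 times and 0 higher, where 24.6% and 13.2% of all genes were, and Cry1 was at 0.953 (0.824 to 1.11). With TMM scaling 3 of the 7 were lower past the limit (Arntl, Bhlhe40 and Rora), where 13.5% of all genes were, and Cry1 was at 1.14. Bhlhe40 was at 31.3 CPM in WT HFD and 184 CPM in WT normal diet and Arntl at 17.7 and 36.8 CPM. In CKO 6 of 6 were lower, where 42.6% of all genes were, and 4 of 6 with TMM scaling, where 21.0% were. The median log2 ratio of all genes in CPM was also below 0, at -0.42, and that of the clock genes was -1.18. In the group of longest genes the median was -1.16, and the part of gene length in the clock ratios was not tested. Between genotypes on the high-fat diet 1 of 6 was higher and 2 were lower in CKO, where 5.38% and 20.7% of all genes were. Bhlhe40 was at 1.94, Cry1 at 0.622 and Nr1d2 at 0.646. With TMM scaling 1 was higher, Bhlhe40 at 2.25, and 0 were lower, where 9.97% and 10.6% of all genes were. Between genotypes on the normal diet 0 of 7 were past the limit, where 0.493% of all genes were higher and 0.592% lower.

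By likeness of profile over the 4 libraries, measured as the root mean square difference of centred log2(CPM + 10) over 3834 genes of at least 50 CPM, Hsph1 was nearest to Dnajb11 (0.039), Tubb2a (0.044) and Hspa8 (0.046). Hsp90aa1 was nearest to Utp3 (0.035) and Tubb2a (0.037), while Klf9 was nearest to Cd33 (0.030), Alox5 (0.042) and Klf4 (0.066). Per1 was nearest to Snhg8 (0.056), Tlr2 (0.064) and Ppp1r15a (0.072), and Dnajb1, which hardly varied, to Kdelr2 (0.020). Hspa1a had no gene so close: its nearest were Prxl2b (0.269), C1qc (0.276) and C1qa (0.288), subunits of complement C1q for the last 2, and those of Fkbp5 were Rnase4 (0.137) and Cbr2 (0.163). Hspa1b was nearest to Tppp3 (0.193), Rnase4 (0.216) and Mgl2 (0.231), and Tsc22d3 to S100a10 (0.116). With 4 libraries such likeness is a description of 4 values only.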

How the data were processed

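UMIs were counted in single cells of 4 libraries of sorted mouse fat macrophages. The values the authors deposited are unnormalised UMI counts for each gene in each barcode, made with Cell Ranger 7.0.0 per the file headers, on GRCm38 per the submitters' processing notes. The sources used do not say if intron reads entered these counts. The members and gene lists were chosen with earlier results of these data known.

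Cells needed 500 UMIs or more, 300 genes or more and no more than 10% mitochondrial UMIs; 21388 cells were kept, with 42551849 UMIs in CKO HFD, 74442649 in WT HFD, 24513539 in CKO normal diet and 21788293 in WT normal diet. UMIs were summed per library and scaled to CPM. Ranks and the median log2 ratios of all genes and of the gene lists used CPM + 1, while ratios of single genes used CPM. Shares, gates and gate levels used cells thinned to 2000 UMIs, and a gate needed 50 cells. Cells with UMIs of at least 3 fibroblast or lymphoid markers are called fibroblast-like or lymphoid-like. No doublet caller was run, and leaving out the 5% of cells with most UMIs was an alternative. Intervals are at 95% and cover counting error only: exact Poisson for levels, Clopper-Pearson for shares, and Clopper-Pearson on the split of UMIs between 2 libraries for ratios. Those of levels and ratios take each UMI as independent and leave out the spread over cells. A difference past 1.5 times is a rule of size, not a test, and no p-value is given.

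From each list the text names genes among the 3 with the highest mean CPM or past 1.5 times in a comparison described, and for each member up to 3 genes of nearest profile. Prdm1 is the targeted gene, Hsf1 and Nr3c1 encode the regulators, and Igkc, Ier2 and Egr1 were chosen after their values were seen, as was the measure of variance beyond counting over the squared mean. Gene spans came from GENCODE M21, which held 32235 of the 32285 identifiers (99.8%). The number of per-sample columns left unused was 0. Genes that overlap Hspa1a (Gm20481) or Fkbp5 (Gm49838 and Gm22146) were each below 1 CPM. Python 3.11.15, numpy 2.4.6, scipy 1.17.1, pandas 2.3.3 and matplotlib 3.10.9 were used, and edgeR 4.0.16 for TMM factors alone. The ratio intervals were checked on simulated Poisson counts, which is the model they assume. That check cannot show how they perform where UMIs cluster in cells. The thinning was checked on the WT normal diet library itself.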

Additional observations from a re-analysis of the deposited data

Results flagged for a closer look

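Among the 9 members, the heat shock sum and the glucocorticoid target sum, 5 values went opposite ways under the same contrast in 2 groups. In each, both counting intervals lay on their own side of 1. With 1 library per group the difference itself was not tested. The sum of Hsp90aa1, Hsph1 and Dnajb1 also did so, with CKO over WT at 0.634 on the high-fat diet and 1.08 on the normal diet. The genotype ratio of the heat shock sum was 0.877 on the high-fat diet and 1.31 on the normal diet, a quotient of 0.667, and with TMM scaling the high-fat value was 1.02. For Hsp90aa1 the same 2 ratios were 0.594 and 1.08, a quotient of 0.553. For Per1 they were 1.63 and 0.857, a quotient of 1.90. The diet ratio of the glucocorticoid target sum was 1.17 in CKO and 0.790 in WT, a quotient of WT over CKO of 0.676. In CKO only Tsc22d3 was above 1 in CPM, at 1.70, while Fkbp5, Per1 and Klf9 were below 1. For Fkbp5 the diet ratio was 0.809 in CKO and 1.28 in WT, a quotient of WT over CKO of 1.58, and with TMM scaling both were above 1, at 1.13 in CKO and 1.52 in WT. Each of these quotients rests on all 4 libraries, and WT HFD has more UMIs per cell than the others.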

How the results depend on the processing

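Over 10 alternatives, 28 of 36 member ratios stayed on the same side of 1, and 13 of the 16 past 1.5 times stayed past it in all of them. The other 3 were Hsph1 and Hsp90aa1 in CKO HFD over WT HFD (past it in 7 and 8 of 10) and Klf9 in WT HFD over WT normal diet (5 of 10). Calls were also gained: for CKO HFD over CKO normal diet 5 of 5 heat shock genes were past 1.5 times with TMM factors and 4 of 5 with size factors, against 1 of 5 in CPM. The share of all genes higher past it was 25.9% with TMM factors, 24.5% with size factors and 11.8% in CPM. Against CPM, TMM factors shifted the log2 ratios by 0.21 for CKO HFD over WT HFD, -0.02 for CKO over WT on the normal diet, 0.25 for WT HFD over WT normal diet and 0.49 for CKO HFD over CKO normal diet, and size factors by 0.22, -0.03, 0.19 and 0.45. With TMM factors the heat shock sum was 1.02 for CKO HFD over WT HFD, 2.36 for WT HFD over WT normal diet and 1.85 for CKO HFD over CKO normal diet; the glucocorticoid target sum was 2.16, 0.943 and 1.64. With median-of-ratios size factors these were 1.02, 2.26 and 1.80, and 2.17, 0.904 and 1.59. In cells thinned to 2000 UMIs the heat shock sum was 0.978, 1.91 and 1.35, and 1.39 for CKO over WT on the normal diet; the target sum was 1.92 for CKO HFD over WT HFD, 1.13 for CKO HFD over CKO normal diet and 1.32 for CKO over WT on the normal diet. With totals that left out mitochondrial, ribosomal protein and 4 nuclear-rich genes, the heat shock sum was 2.09 for WT HFD over WT normal diet and 1.41 for CKO HFD over CKO normal diet, and the target sum 0.836 and 1.25. Relative to genes of similar span, the heat shock sum was 1.90 for WT HFD over WT normal diet and 1.24 for CKO HFD over CKO normal diet, and the target sum 2.31 for CKO HFD over WT HFD, 0.938 for WT HFD over WT normal diet and 1.77 for CKO HFD over CKO normal diet. Without the 5% of cells with most UMIs the heat shock sum was 0.916 for CKO HFD over WT HFD and 1.90 for WT HFD over WT normal diet. The causes of these shifts were not tested. Other mitochondrial limits, a minimum of 1000 UMIs, and leaving out fibroblast-like and lymphoid-like cells moved 0 of 52 ratios beyond their counting intervals. Requiring 2 UMIs of the gate gene moved 26 of 81 gate levels, and gating at 1000 UMIs moved 24 of 90. No paired analysis was possible because each group had 1 library, and for the same reason no replicate could be left out.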
